A study of Mus musculus with 4 samples.

Results

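The genes of lymphocyte attractants *Ccl1*, *Ccl3*, *Ccl4*, *Ccl5* and *Xcl1* were followed across the immune cells of the mouse liver. They were chosen by symbol, and 5 of 5 were found among the 33696 genes of both gene expression matrices. CD45+ liver cells came from *Stab2-CrexERT2; R26-LSL-tdT* mice at 2 months of age that had received tamoxifen at embryonic day 9.5, so tdTomato marks cells whose ancestors expressed *Stab2*, an endothelial gene, in the early embryo. Sorted tdTomato+ cells and tdTomato- cells, the latter labelled control, each gave 1 library of 5′ gene expression and 1 library of γδ T cell receptor (TCR) sequences, 4 samples in all. The labels give both sorts the genotype S2 and no treatment, batch 1 for tdTomato+ and batch 2 for tdTomato-, and the study pooled several mice per sort and mixed all γδ T cells with a smaller part of the other cells.

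With 1 library per sort no difference between the sorts could be tested, and sort and batch cannot be told apart. Values are counts of unique molecular identifiers (UMIs) summed over the cells of a group and scaled to 1000000 UMIs of that group (CPM). Intervals are 95% and cover counting error only. A gene is called higher or lower past the limit when it had at least 50 CPM in 1 of the groups compared, a ratio of at least 2 and an interval without 1. The matrices held 203366009 UMIs in 17957 barcodes (tdTomato+) and 156771260 UMIs in 18444 barcodes (tdTomato-), of which 17509 and 18173 cells were kept, and 84 barcodes occurred in both libraries, 35 of them in tdTomato- γδ T-like cells and 0 in tdTomato+ γδ T-like cells.

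Chemokines are small secreted proteins that bind receptors on leukocytes and set where these cells move. *Ccl3* and *Ccl4* encode the macrophage inflammatory proteins, attractants of monocytes and T cells. *Ccl5* encodes RANTES, an attractant that memory and effector lymphocytes keep transcribing. *Xcl1* encodes lymphotactin, whose receptor Xcr1 is carried by type 1 conventional dendritic cells (cDC1), and *Ccl1* encodes a ligand of Ccr8. Activated T cells and natural killer (NK) cells are known sources of these attractants.

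In the mm10 annotation (GENCODE vM21) the CC members lie on chromosome 11 and *Xcl1* on chromosome 1. *Ccl3* (ENSMUSG00000000982) spans chr11:83647844-83649355 on the minus strand, and *Ccl4* (ENSMUSG00000018930) spans chr11:83662584-83664683 on the plus strand, 13228 bases away. *Ccl5* (ENSMUSG00000035042) spans chr11:83525778-83530518 on the minus strand, 117325 bases from *Ccl3*. *Ccl1* (ENSMUSG00000020702) spans chr11:82176657-82305690 on the minus strand with 3 annotated transcripts, and *Xcl1* (ENSMUSG00000026573) spans chr1:164931644-164935527 on the minus strand. *Ccl3*, *Ccl4*, *Ccl5* and *Xcl1* have 3 exons each, while the longest *Ccl1* model has 11 exons and a gene span of 129034 bases.

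Because the 5′ kit reads each transcript from its start, the windows that hold the annotated starts of 3 members are shown, each with 250 bases before and 50 after the start (RefSeq, GRCm38.p6). Capitals mark a TATA-like stretch, the letters ATAANAG on the gene's strand that begin 40 to 1 bases before the start, a motif chosen after the sequences had been read. The windows are chr11:83649329-83649628 for *Ccl3*, chr11:82179763-82180062 for *Ccl1* and chr1:164935473-164935772 for *Xcl1*, all on the minus strand and printed 5′ to 3′. *Ccl4* and *Ccl5* are named only.
Ccl3: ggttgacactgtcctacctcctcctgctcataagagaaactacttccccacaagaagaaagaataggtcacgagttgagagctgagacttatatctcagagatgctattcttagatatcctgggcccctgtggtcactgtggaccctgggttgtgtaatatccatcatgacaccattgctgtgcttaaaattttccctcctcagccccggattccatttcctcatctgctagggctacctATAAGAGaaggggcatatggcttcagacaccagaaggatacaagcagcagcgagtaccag
Ccl1: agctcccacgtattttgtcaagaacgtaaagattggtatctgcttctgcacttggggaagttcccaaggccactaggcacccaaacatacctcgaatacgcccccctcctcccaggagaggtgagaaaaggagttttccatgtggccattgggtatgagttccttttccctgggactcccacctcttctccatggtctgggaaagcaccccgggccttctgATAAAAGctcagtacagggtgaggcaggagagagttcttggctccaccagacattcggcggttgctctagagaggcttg
Xcl1: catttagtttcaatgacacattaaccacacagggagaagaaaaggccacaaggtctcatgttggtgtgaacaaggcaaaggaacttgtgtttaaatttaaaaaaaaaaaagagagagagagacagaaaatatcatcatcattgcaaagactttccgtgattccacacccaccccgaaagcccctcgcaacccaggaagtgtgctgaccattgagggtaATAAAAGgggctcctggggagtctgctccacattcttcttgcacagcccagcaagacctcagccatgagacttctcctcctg

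Each of the 3 windows held a marked stretch, beginning 10 bases before the RefSeq start in *Ccl3*, 29 in *Ccl1* and 32 in *Xcl1*. The nearest GENCODE start lies 23 bases downstream of the RefSeq start in *Ccl3*, which puts its stretch 33 bases before that start. Of 32544 such windows in the mouse table, 1.64% held the letters at that place on the gene's strand, and 11.8% held them anywhere on either strand. Searched on both strands, the NFAT core letters GGAAA occurred in all 3 windows, against 61.5% of all windows, and an NF-kappaB consensus in *Ccl1* only, against 8.49% of all windows. Neither the AP-1 letters TGANTCA (7.79% of all windows) nor the T-box letters AGGTGTGA (1.28%) occurred in the 3 windows. The 2 NF-kappaB matches in *Ccl1* overlap each other, no match of another motif overlaps a marked stretch, and a match describes letters, not a bound site.

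The cells were grouped with the chemokine ligand genes left out of the genes used for clustering. The γδ T-like class held 272 tdTomato+ and 8249 tdTomato- cells, with 205 and 411 CPM of *Trdc*, the δ chain constant gene, and 1175 and 1710 CPM of *Cd3e*. Its subsets carry the study's names, each after a leading gene, and cells with at least 2 UMIs of *Gzmc*, a granzyme gene, were set apart from them. There were 8 tdTomato+ and 248 tdTomato- *Gzmc*-positive γδ T-like cells. The other γδ T-like cells included 57 and 3006 gdT_Ncr1-like cells, 29 and 1724 gdT_Gzmk-like cells, 48 and 1083 gdT_Il4-like cells and 13 and 160 gdT_Prolif-like cells, and 117 and 2028 cells lay outside these 4 subsets. In the tdTomato+ library *Trdc* was at 133.6 CPM in gdT_Gzmk-like, 129.1 in gdT_Il4-like, 138.6 in gdT_Prolif-like and 131.2 in *Gzmc*-positive cells. These lie under the 200 CPM used to name the class, so the γδ name of these tdTomato+ groups is in doubt. gdT_Ncr1-like cells had 348.7 CPM there and the cells outside the subsets 220.2 CPM. NK-like cells comprised 138 and 111 Eomes NK-like cells (296 and 434 CPM of *Eomes*) and 302 and 44 cells resembling type 1 innate lymphoid cells (ILC1-like, 7.52 and 11.4 CPM of *Eomes*). *Trav11* or *Trav11d* UMIs marked only 8 and 16 αβ T-like cells, so the 384 and 838 cells called NKT-like rest on *Zbtb16* (270 and 264 CPM) and the other markers of that name.

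Free RNA and doublets set a floor for every share of positive cells. B cell-like cells, which should carry little of these transcripts, served as that floor at a median of 6614 (tdTomato+) and 6061 (tdTomato-) UMIs, close to the 8595 and 7604 UMIs of γδ T-like cells. With each cell thinned to 2000 UMIs, the B cell-like share with a UMI was 4.29% and 19.2% for *Ccl5*, 1.53% and 8.06% for *Xcl1*, 2.76% and 8.88% for *Ccl4*, and 1.53% and 5.37% for *Ccl3*. The tdTomato- floor was concentrated: 95.7% of the *Ccl5* counts of B cell-like cells lay in the tenth of those cells with the most, and *Cd3e* reached 231 CPM there against 31.0 CPM in the tdTomato+ library. Their part in the values of other classes was not tested.

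**Figure D1:**
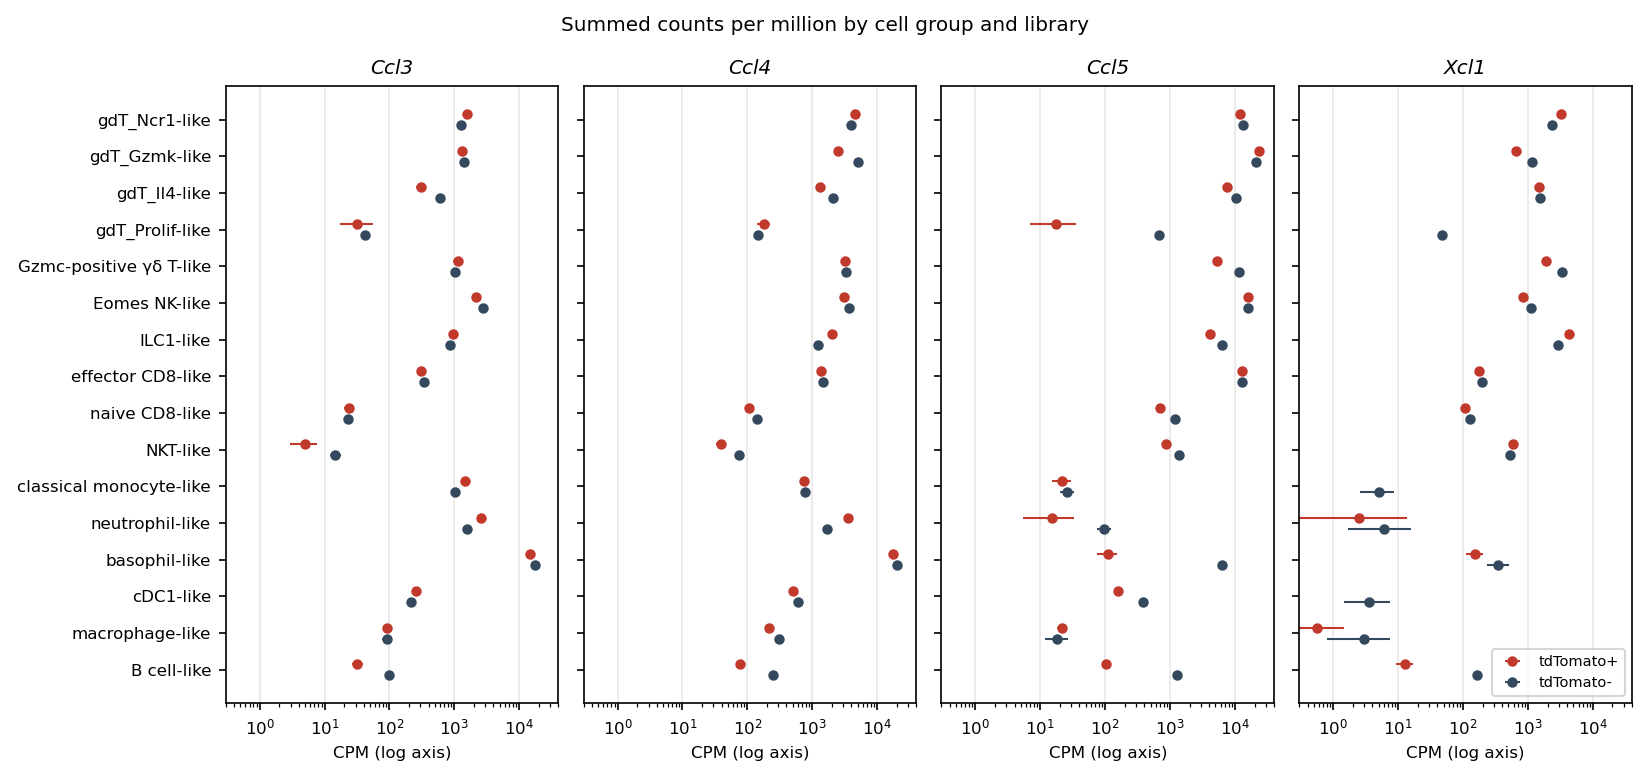
Level of *Ccl3*, *Ccl4*, *Ccl5* and *Xcl1* (x axis, CPM on a log scale) in 16 cell groups (y axis) of the tdTomato+ (red) and tdTomato- (dark blue) libraries. Points are CPM of summed counts and bars the 95% counting interval, and groups at 0 counts have no point. *Ccl3* and *Ccl4* peak in basophil-like cells, whereas *Ccl5* and *Xcl1* lie highest in γδ T-like, NK-like and, for *Ccl5*, effector CD8-like cells.

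*Ccl3* and *Ccl4*, the macrophage inflammatory proteins, were found both in lymphocytes and in myeloid cells. In γδ T-like cells *Ccl3* stood at 506 CPM (480–533) in the tdTomato+ library and 831 CPM (825–838) in the tdTomato- library. gdT_Ncr1-like cells held 1554 and 1272 CPM of *Ccl3* and gdT_Gzmk-like cells 1298 and 1428 CPM. gdT_Il4-like cells were lower, at 309 and 610 CPM, and gdT_Prolif-like cells held 32.2 and 41.7 CPM. Eomes NK-like cells were the highest lymphocytes for *Ccl3*, at 2183 CPM (2097–2272) and 2752 CPM (2641–2866), while ILC1-like cells held 946 and 871 CPM. Effector CD8-like cells held 309 and 338 CPM and naive CD8-like cells 23.9 and 22.8 CPM. NKT-like cells were nearly without the transcript, at 4.94 and 14.6 CPM.

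*Ccl4* had much the same lymphocyte sources. gdT_Ncr1-like cells held 4597 and 3993 CPM, gdT_Gzmk-like cells 2476 and 5060 CPM and gdT_Il4-like cells 1332 and 2097 CPM. Eomes NK-like cells held 3033 and 3736 CPM, ILC1-like cells 2035 and 1229 CPM and effector CD8-like cells 1378 and 1440 CPM. In the tdTomato- library gdT_Gzmk-like cells thus lay above Eomes NK-like cells, and in the tdTomato+ library below them. NKT-like cells held 39.0 and 74.7 CPM, less than the 76.5 and 249 CPM of B cell-like cells. Regulatory T-like cells held 4.76 CPM in the tdTomato+ library and 554 CPM in the tdTomato- library, where 1 cell gave 244 of the 516 counts.

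Basophil-like cells, few in number, held the most *Ccl3* and *Ccl4* of any group. All 39 tdTomato+ and all 8 tdTomato- cells had a *Ccl3* UMI, at 14844 CPM (14426–15271) and 17202 CPM (16289–18153), and *Ccl4* reached 17434 and 20479 CPM. The 39 tdTomato+ basophil-like cells gave 12.7% of the *Ccl3* counts of their library. Neutrophil-like cells held 2574 and 1547 CPM of *Ccl3* and 3533 and 1706 CPM of *Ccl4*. Classical monocyte-like cells held 1467 and 1032 CPM of *Ccl3* and 734 and 776 CPM of *Ccl4*, so here *Ccl3* alone was high. Among dendritic cells, cDC2-like cells held 1071 and 2764 CPM of *Ccl4*, plasmacytoid cells 868 and 1164 CPM and cDC1-like cells 503 and 598 CPM. Macrophage-like cells held 90.4 and 93.0 CPM of *Ccl3* and 217 and 313 CPM of *Ccl4*.

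*Ccl5* was a lymphocyte transcript with a wide range. The highest level was that of gdT_Gzmk-like cells, at 23388 CPM (22779–24008) in 29 tdTomato+ cells and 21402 CPM (21321–21483) in 1724 tdTomato- cells. Those 29 cells had 133.6 CPM of *Trdc* and 221.3 CPM of *Trac*, the α chain constant gene. Their γδ name, given to subclusters of both libraries together, is therefore in doubt. The 1724 cells had 415.8 and 343.5 CPM, and *Trac* was among the markers that named this subset. Effector CD8-like cells of the tdTomato- library had 14.6 CPM of *Trdc* and 288.1 CPM of *Trac*, and gdT_Ncr1-like cells 494.7 and 48.6 CPM. A part of αβ T cells in the 1724 cells was not tested. For *Ccl5*, Eomes NK-like cells followed at 15603 and 15586 CPM, effector CD8-like cells at 12729 and 12666 CPM and gdT_Ncr1-like cells at 11838 and 13040 CPM. The intervals of the last 2 groups did not overlap in either library, but their order turned between the libraries. gdT_Il4-like cells held 7480 and 10180 CPM and ILC1-like cells 4186 and 6205 CPM. NKT-like cells held 853 and 1385 CPM, naive CD8-like cells 709 and 1173 CPM and gdT_Prolif-like cells 17.3 and 663 CPM.

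Read against the B cell-like floor, *Ccl5* was detected in nearly every cell of several groups. After thinning, 99.9% of gdT_Ncr1-like and 99.7% of gdT_Il4-like cells of the tdTomato- library had a UMI, as had all 1706 gdT_Gzmk-like cells and 97.2% of *Gzmc*-positive γδ T-like cells. Effector CD8-like cells stood at 96.4% and 96.7%, and NKT-like cells at 53.9% and 61.3%. The share in tdTomato- gdT_Prolif-like cells, 12.6%, was under that of B cell-like cells, and so were their 8.18% for *Ccl4*, 3.77% for *Ccl3* and 5.03% for *Xcl1*. Whether these shares are background was not tested. gdT_Prolif-like cells had a median of 28647 and 27948 UMIs before thinning, over 3 times that of the γδ T-like class. Of myeloid groups, macrophage-like cells held 21.4 and 18.3 CPM of *Ccl5* and classical monocyte-like cells 21.4 and 26.1 CPM. The 6192 CPM of *Ccl5* in tdTomato- basophil-like cells came from 4 of 8 cells beside 518 CPM of *Cd3e*, against 109 CPM of *Ccl5* and 52.7 CPM of *Cd3e* in the 39 tdTomato+ cells.

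**Figure D2:**
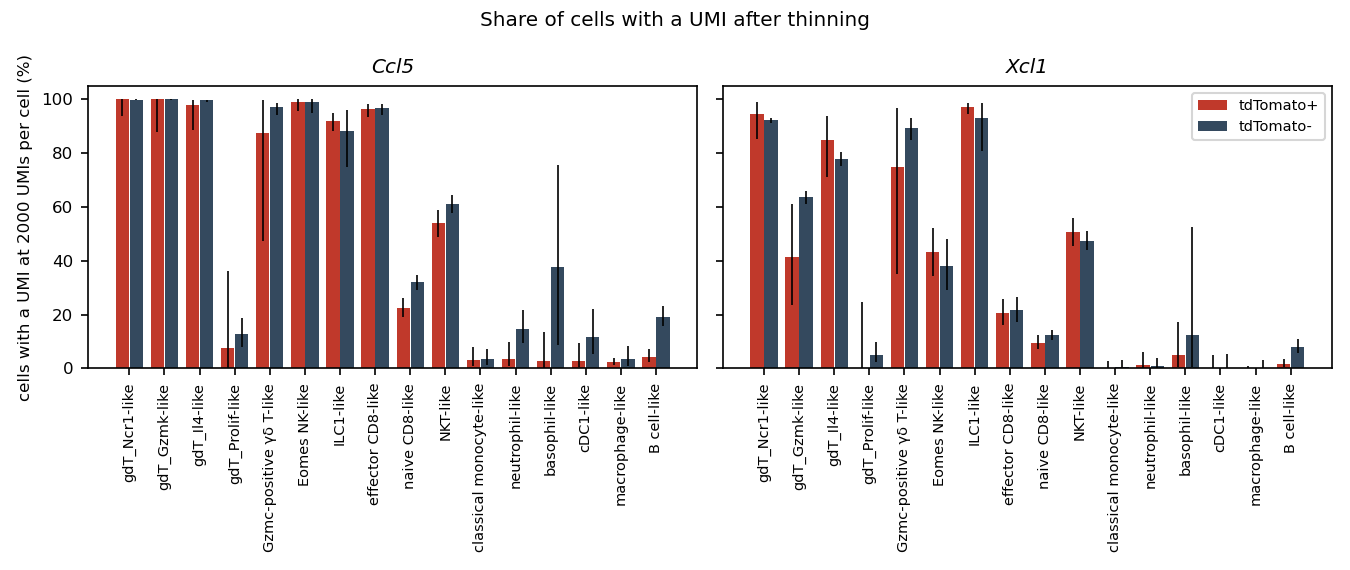
Share of cells with at least 1 UMI of *Ccl5* (left) and *Xcl1* (right) after each cell was thinned to 2000 UMIs (y axis, %), by cell group and library (tdTomato+ red, tdTomato- dark blue). Bars carry exact 95% binomial intervals. *Ccl5* nears 100% in 3 γδ subsets, Eomes NK-like and effector CD8-like cells, while *Xcl1* is high in ILC1-like and gdT_Ncr1-like cells and low in effector CD8-like cells.

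*Xcl1*, the attractant of cDC1, split the cytotoxic classes differently from *Ccl5*. ILC1-like cells held 4275 CPM (4200–4350) and 2901 CPM (2726–3084), and 97.0% and 93.0% of them had a UMI after thinning. gdT_Ncr1-like cells held 3231 and 2363 CPM, with 94.7% and 92.3% positive. gdT_Il4-like cells held 1478 and 1555 CPM, Eomes NK-like cells 827 and 1103 CPM and gdT_Gzmk-like cells 656 and 1139 CPM. Effector CD8-like cells held 173 CPM (158–190) and 194 CPM (179–210), not far from the 105 and 129 CPM of naive CD8-like cells. NKT-like cells held 594 and 534 CPM, with 50.7% and 47.4% positive after thinning. Macrophage-like cells had 4 counts in each library, and classical monocyte-like cells 0 and 12 counts. cDC1-like cells themselves had 0 and 7 counts of *Xcl1*, which for 0 counts allows up to 1.51 CPM.

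Effector and naive CD8-like cells differed past the limit in *Ccl5* (log2 ratio 4.17 for tdTomato+ and 3.43 for tdTomato-), *Ccl3* (3.69 and 3.89) and *Ccl4* (3.70 and 3.36), 3 of 4 members against 8.68% and 7.49% of all genes tested. For *Xcl1* the same ratio was 0.72 (0.54–0.90) and 0.59 (0.45–0.73), not past the limit. In the tdTomato- library naive CD8-like cells had lower CPM than B cell-like cells for all 4 members, and in the tdTomato+ library for *Ccl3* only. The part of background in these ratios was not tested. Within NK-like cells, ILC1-like cells had more *Xcl1* than Eomes NK-like cells (log2 ratio 2.37 and 1.40) and less *Ccl3* (−1.21 and −1.66) and *Ccl5* (−1.90 and −1.33), past the limit in both libraries, as were 9.64% and 12.5% of all genes tested. For *Ccl4* that ratio was −0.58 in the tdTomato+ library, not past the limit, and −1.60 in the tdTomato- library, past it. Within γδ T-like cells, gdT_Gzmk-like cells had less *Xcl1* than gdT_Ncr1-like cells (−2.30 and −1.05, past the limit with 7.99% and 3.44% of all genes tested) and more *Ccl5* (0.98 and 0.71, not past it). These ratios order groups within a library, where both groups came from 1 preparation.

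*Ccl1* was rare everywhere. The tdTomato+ library held 192 and the tdTomato- library 132 counts of it in all. In tdTomato- γδ T-like cells 116 counts came from 16 of 8249 cells, and a single cell gave 58 of them. In tdTomato+ γδ T-like cells 4 counts came from 2 of 272 cells, so both levels, 1.42 and 1.61 CPM, had wide intervals (0.387–3.63 and 1.33–1.93). *Gzmc*-positive γδ T-like cells held 66 of the 132 tdTomato- counts, but in 3 of 248 cells, and 58 of the 66 came from that same top cell. Among other lymphocytes, 25 counts lay in 2 of 384 tdTomato+ NKT-like cells, 8 counts in 4 of 155 tdTomato+ innate lymphoid-like cells and 5 counts in 3 of 302 tdTomato+ ILC1-like cells, and none in Eomes NK-like or effector CD8-like cells of either library. Those 0 counts allow up to 2.72 and 3.55 CPM in Eomes NK-like cells (3 counts).

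Between the libraries, no member passed the limit in γδ T-like cells, although *Ccl3*, *Ccl4* and *Ccl5* stood lower in the tdTomato+ library with intervals apart. The log2 ratio of tdTomato+ over tdTomato- was −0.72 (−0.79 to −0.64) for *Ccl3*, −0.93 (−0.97 to −0.88) for *Ccl4*, −0.83 (−0.85 to −0.81) for *Ccl5* and 0.16 (0.12–0.21) for *Xcl1*. Of the 4 members with at least 50 CPM 0 passed the limit, against 2.04% of all 3820 genes with that level (51 higher, 27 lower, median log2 ratio 0.01), and the intervals of *Ccl1*, under 50 CPM, overlapped. After thinning, the share of γδ T-like cells with a UMI was 27.1% (21.8–32.8) for tdTomato+ and 37.9% (36.8–38.9) for tdTomato- in the case of *Ccl3*, 43.2% (37.2–49.4) and 59.0% (57.9–60.1) for *Ccl4*, and 65.0% (59.0–70.8) and 83.6% (82.8–84.4) for *Ccl5*, beside the B cell-like floors given above. The *Xcl1* share was lower in the tdTomato+ library as well, at 52.6% (46.4–58.8) against 65.2% (64.1–66.2). Before thinning, a cell with a UMI held on average 13.5 counts of *Ccl3* in both libraries, and 28.4 and 33.1 of *Ccl4*, 87.9 and 106 of *Ccl5* and 25.0 and 15.6 of *Xcl1*. *Xcl1* in the tdTomato+ class rested on a single cell with 812 of the 4317 counts, and without the top cell of each library its ratio was −0.10, while that of *Ccl4* was −1.02 and past the limit. With at least 800 genes and at most 5% mitochondrial counts per cell, *Ccl3* (−1.20), *Ccl4* (−1.37) and *Ccl5* (−1.35) all passed the limit. Endothelial genes moved with the tdTomato+ library: the 11 genes of that list summed to 399 CPM in tdTomato+ and 101 CPM in tdTomato- γδ T-like cells, with none of the 11 at 0, and without the 15 and 22 cells of a subcluster led by endothelial genes the ratios were −0.68 for *Ccl3*, −0.91 for *Ccl4*, −0.84 for *Ccl5* and 0.17 for *Xcl1*.

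In gdT_Ncr1-like cells alone the libraries lay closer together. There the log2 ratio was 0.29 for *Ccl3*, 0.20 for *Ccl4*, −0.14 for *Ccl5* and 0.45 for *Xcl1*, and 0 of 4 members passed the limit against 0.875% of all 3770 genes tested. In the 29 tdTomato+ gdT_Gzmk-like cells 1 of 4 members, *Ccl4*, was lower past the limit (−1.03, −1.15 to −0.91), against 4.48% of all genes tested. *Xcl1* was at −0.80 (−1.03 to −0.57), *Ccl3* at −0.14 and *Ccl5* at 0.13, none past it. In gdT_Il4-like cells the ratios ran from −0.98 for *Ccl3* to −0.07 for *Xcl1*, and 0 of 4 passed (background 2%). Cells outside the 4 subsets made up 117 of 272 tdTomato+ but 2028 of 8249 tdTomato- γδ T-like cells, and these had little of the CC members (*Ccl5* at 1717 and 3444 CPM, *Ccl3* at 120 and 250 CPM). That single *Xcl1*-rich cell lay here, in a group at 1564 CPM of *Xcl1* against 440 CPM in the tdTomato- library.

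No member passed the limit between the libraries in 4 other lymphocyte groups. In Eomes NK-like cells 0 of 4 members passed the limit (background 0.743% of genes tested), with log2 ratios from −0.42 for *Xcl1* to 0.00 for *Ccl5*. In ILC1-like cells 0 of 4 passed (background 2.5%), with −0.57 for *Ccl5*, 0.56 for *Xcl1* and 0.73 for *Ccl4*. In effector CD8-like cells 0 of 4 passed (background 0.372%), with −0.16 for *Xcl1* to 0.01 for *Ccl5*. In NKT-like cells 0 of the 3 members at 50 CPM passed (background 0.446%), with −0.94 for *Ccl4*, −0.70 for *Ccl5* and 0.15 for *Xcl1*. B cell-like cells differed more than any of these, at −3.64 for *Ccl5* and −3.71 for *Xcl1*, the same direction as their *Cd3e*.

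**Figure D3:**
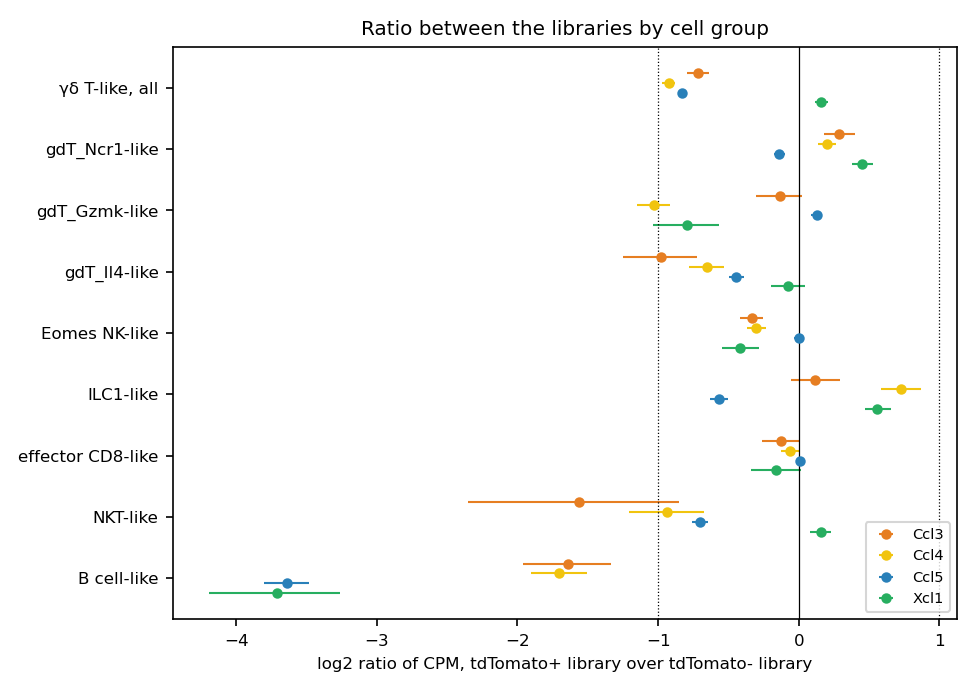
Log2 ratio of CPM, tdTomato+ over tdTomato- library (x axis), of *Ccl3*, *Ccl4*, *Ccl5* and *Xcl1* (colours) in 9 cell groups (y axis), with 95% counting intervals and dotted lines at the 2-fold limit. The ratios of effector CD8-like cells lie near 0, those of gdT_Ncr1-like cells between −0.14 and 0.45, and those of B cell-like cells reach −3.71.

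Compared with γδ T-like cells of the same library, NK-like cells had more *Ccl3*, with a larger ratio in Eomes NK-like than in ILC1-like cells. In the tdTomato- library the level was 2199 against 831 CPM (log2 ratio 1.40, 1.35–1.46), and 1 of 4 members passed the limit against 7.38% of all 3914 genes tested. *Ccl4* (0.12), *Ccl5* (0.29) and *Xcl1* (0.25) did not pass. Eomes NK-like cells alone had a *Ccl3* ratio of 1.73 there, where 11% of all genes passed, and ILC1-like cells 0.07 (−0.10 to 0.23). ILC1-like cells of that library had more *Xcl1* (1.08) and less *Ccl4* (−1.17) than γδ T-like cells, past the limit with 7.04% of all genes. In the tdTomato+ library *Ccl3* was again higher (1.35; 2.11 for Eomes NK-like and 0.90 for ILC1-like cells), though at 1285 CPM below the 1554 CPM of gdT_Ncr1-like cells. Of all genes 11.9% passed in its Eomes NK-like and 6.81% in its ILC1-like comparison with γδ T-like cells. *Xcl1* was higher too (1.12), 2 of 4 members against 6.43% of all genes tested, in a class with 302 ILC1-like of 440 cells against 44 of 155 in the tdTomato- library. Of 9 effector genes tested in the tdTomato- library, *Prf1*, encoding perforin, was higher in NK-like cells (1024 against 133.5 CPM), and *Gzmb* (1367 against 4070 CPM) and *Csf2* (32.6 against 90.0 CPM) were lower. Of 10 regulators of type 1 effector genes 4 were higher in NK-like cells, *Eomes*, *Zeb2*, *Klf2* and *Bhlhe40*, and none was lower. Of 15 receptor-signal and immediate-early genes *Egr1* and *Nfkbiz* were higher in NK-like cells, and of 7 dissociation stress genes *Atf3* (368 against 130 CPM) and *Socs3* (124 against 45.1 CPM), and the part of cell handling in the *Ccl3* ratio was not tested. The endothelial list had 1 gene tested, *Pecam1*, which was higher in NK-like cells (68.5 against 28.6 CPM), while its 11 genes summed to 108.6 and 100.8 CPM. Effector CD8-like cells of the tdTomato- library had less *Xcl1* (−2.82) and *Ccl3* (−1.30) than γδ T-like cells, past the limit with 7.25% of all genes tested, and *Ccl5* at 0.27. In the tdTomato+ library *Xcl1* was lower (−3.14) and *Ccl5* higher (1.11), against 6.77%.

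*Gzmc*-positive γδ T-like cells stood out in *Xcl1*. In the tdTomato- library the 248 cells held 3322 CPM (3249–3396) against 1303 CPM in *Gzmc*-negative γδ T-like cells (log2 ratio 1.35, 1.32–1.38), and 89.5% of them had a UMI after thinning. Of the 4 members with at least 50 CPM 1 passed the limit, against 1.95% of all 3695 genes tested (22 higher, 50 lower). The ratio was 0.34 for *Ccl3*, 0.30 for *Ccl4* and 0.14 for *Ccl5*, none past the limit. The gdT_Ncr1-like subset, of 3006 tdTomato- cells, had 3208 with *Gzmc*-positive cells included. Without them it held 2363 CPM of *Xcl1*, with 92.3% of cells positive after thinning, and 3231 CPM in the tdTomato+ library. *Gzmc*-positive cells thus lay above this subset in the tdTomato- library and below it in the tdTomato+ library. A ratio of *Gzmc*-positive cells to this subset alone was not computed. *Ccl1* was at 27.7 against 0.717 CPM, under 50 CPM and carried by 3 cells. The 8 tdTomato+ cells held 1880 CPM of *Xcl1* (1637–2149) against 1517 CPM, a ratio of 0.31, while *Ccl3* (1.26) and *Ccl4* (1.24) were past the limit there, 2 of 4 members against 9.65% of all 4404 genes tested. A single cell gave 156 of the 371 *Ccl4* counts and a single cell 45 of the 131 *Ccl3* counts, and the difference between the libraries was not tested. *Gzmc*-positive cells had no UMI of *Ccl1* in the tdTomato+ library, which in 8 cells allows up to 26.2 CPM.

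Other genes of the lists also differed past the limit between *Gzmc*-positive and all *Gzmc*-negative γδ T-like cells, where 1.95% of all genes tested did. *Tnfrsf9*, encoding the activation receptor 4-1BB, was higher in tdTomato- *Gzmc*-positive cells (245.5 against 71.2 CPM, log2 ratio 1.79), the only one of 14 receptor-signal and immediate-early genes tested past the limit. Of 10 effector genes tested *Gzmk* was lower (17.7 against 71.9 CPM) and *Gzmc*, which chose the cells, was higher. The *Gzmc*-negative side included gdT_Gzmk-like cells with 298.5 CPM of *Gzmk* and gdT_Ncr1-like cells with 14.0 CPM of *Gzmk* and 118.3 CPM of *Tnfrsf9*. *Gzmb* (0.89) and *Gzma* (0.74) were not past the limit, and *Ifng* was at −0.10. None of 7 regulators tested passed the limit, and of 7 dissociation stress genes *Hspb1* was higher (78.2 against 23.4 CPM). The endothelial list had 1 gene tested, *Ehd3*, which was lower (24.8 against 50.3 CPM), and its 11 genes summed to 59.3 against 102 CPM. Among ILC1-like cells of the tdTomato+ library 36 were *Gzmc*-positive, with 7188 CPM of *Xcl1* against 3852 CPM in the others (0.90, 0.84–0.96), not past the limit, which 2.39% of all genes passed.

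Cells with a *Ccl3* UMI held *Ccl4* more often than cells without one. In tdTomato- γδ T-like cells thinned to 2000 UMIs, *Ccl4* was found in 83.5% (82.1–84.8) of 3073 cells with a *Ccl3* UMI and in 44.1% (42.7–45.4) of 5043 cells without, so 2565 cells had both, 508 had *Ccl3* only and 2222 had *Ccl4* only. Within gdT_Ncr1-like cells the shares were 83.6% and 63.9%, within gdT_Gzmk-like cells 89.5% and 68.7% and within effector CD8-like cells 76.4% and 41.5%. In Eomes NK-like cells the shares were 78.7% and 31.7% in the tdTomato+ library, and 69.9% and 59.3% with overlapping intervals in the tdTomato- library. *Xcl1* was found in 80.4% (79.0–81.8) of the γδ T-like cells with a *Ccl3* UMI and in 55.9% (54.5–57.2) of those without. Within 2 subsets the shares of *Xcl1* with and without *Ccl3* lay closer together, at 93.2% and 91.3% in gdT_Ncr1-like cells and 63.2% and 64.0% in gdT_Gzmk-like cells, with overlapping intervals. These cells share their library, and cells of one sort cannot be traced to mice.

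**Figure D4:**
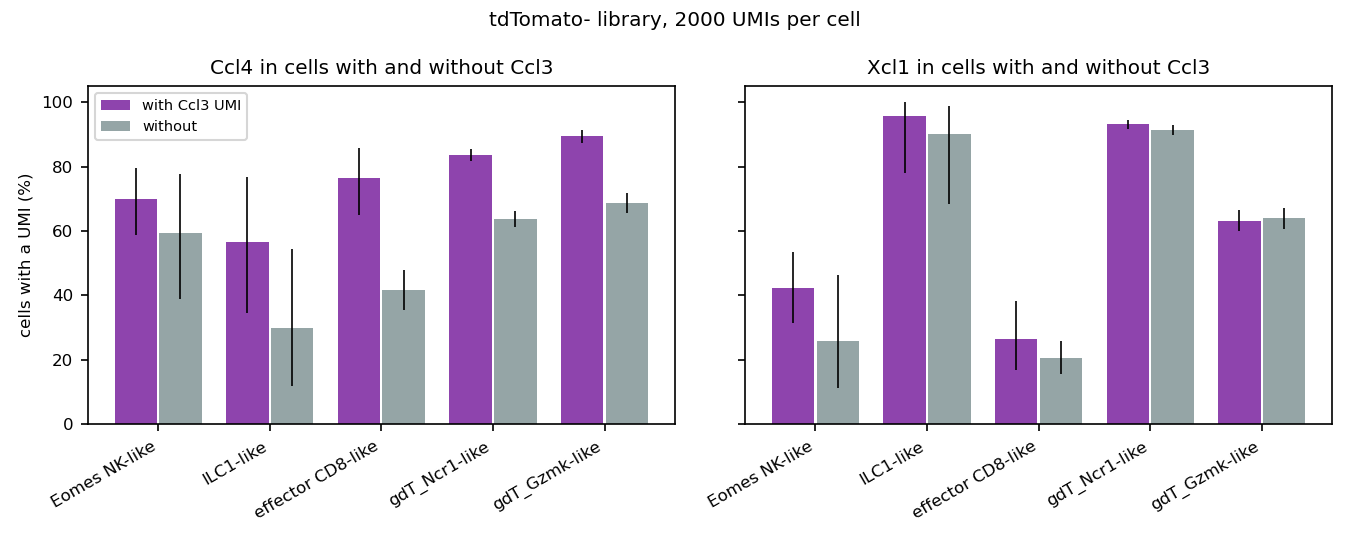
Share of tdTomato- cells with a UMI of *Ccl4* (left) and of *Xcl1* (right), y axis in %, among cells with (purple) and without (grey) a *Ccl3* UMI, in 5 cell groups thinned to 2000 UMIs, with exact 95% binomial intervals. In gdT_Ncr1-like cells the *Ccl4* shares are 83.6% and 63.9% and the *Xcl1* shares 93.2% and 91.3%.

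Counts of a member also gathered in few cells to different degrees. In tdTomato- γδ T-like cells the tenth of cells with the most counts held 62.9% of the *Ccl3* counts, 49.4% of *Ccl4*, 45.2% of *Xcl1* and 27.2% of *Ccl5*. After thinning, 25.6% of 8116 such cells had UMIs of 4 members, 15.2% had none and 5 cells had all 5. Of *Gzmc*-positive γδ T-like cells 35.9% had 4 members, against 4.52% of effector CD8-like cells. γδ T-like cells gave 67.8% of all *Ccl3*, 71.9% of *Ccl4*, 70.0% of *Ccl5* and 80.6% of *Xcl1* counts of the tdTomato- library, a share that the mixing of the sorted cells sets. In the tdTomato+ library γδ T-like cells gave 3.78% of *Ccl3* to 10.2% of *Xcl1*, and NK-like cells 31.8% of *Xcl1*. There 4459 endothelial-like barcodes with CD45 and T cell RNA, which were kept apart from all classes, gave 48.6% of *Ccl5*, 36.1% of *Xcl1* and 55.2% of *Ccl1* counts.

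The receptor γ chain was read for a part of the tdTomato- γδ T-like cells. *Ccl5* was at 13772 CPM in 520 cells with a productive TRGV1 contig, 10868 CPM in 214 with TRGV2 and 11879 CPM in 751 with TRGV4. *Xcl1* was at 1779, 1583 and 1218 CPM in the same order, *Ccl4* at 3449, 2185 and 3072 CPM and *Ccl3* at 944, 814 and 982 CPM. *Ccl1* had 0 counts in all 3. The chains differed by less than 2-fold for each member, and they differed in subset as well: gdT_Ncr1-like cells made up 52.3%, 42.1% and 39.3% and gdT_Gzmk-like cells 29.0%, 7.94% and 33.6% of them, *Gzmc*-positive cells included. The tdTomato+ library had 4, 6 and 18 such cells, too few for a comparison.

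The other genes of the chemokine system had their sources elsewhere. None of 18 other ligands reached 50 CPM in γδ T-like or NK-like cells. *Ccl6* was highest in tdTomato+ basophil-like cells (5032 CPM) and tdTomato- neutrophil-like cells (3277 CPM), *Ccl24* in macrophage-like cells (762 and 663 CPM) and *Ccl2*, a monocyte attractant, in classical monocyte-like cells (454 and 494 CPM). *Xcr1*, the receptor of *Xcl1*, was at 627 and 665 CPM in cDC1-like cells and at no more than 5.71 CPM in the group next in order. *Ccr1*, a receptor of *Ccl3* and *Ccl5*, was highest in neutrophil-like cells (1329 and 1289 CPM). *Ccr8*, the receptor of *Ccl1*, was highest in tdTomato+ innate lymphoid-like cells (493 CPM) and tdTomato- regulatory T-like cells (192 CPM).

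Of the lists that accompany effector function, only the effector genes held genes past the limit between the libraries in γδ T-like cells. Of 9 effector genes tested 2 were lower in the tdTomato+ library, *Gzmk* (29.8 against 70.1 CPM) and *Fasl* (107.5 against 229.8 CPM), and none was higher. Of all 3820 genes tested 2.04% passed the limit. The median log2 ratio of the 9 was −0.59, against 0.01 for all genes tested, and *Gzmb* was at −0.92. None of 15 receptor-signal and immediate-early genes, 8 regulators and 7 dissociation stress genes tested passed the limit, with medians of −0.17, −0.16 and −0.18. The dissociation stress genes summed to 6408 CPM for tdTomato+ against 9160 CPM for tdTomato-. In gdT_Ncr1-like cells *Csf2* was the 1 of 8 effector genes past the limit, higher in the tdTomato+ library (134.6 against 53.8 CPM), where 0.875% of all genes tested passed.

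Over the 38 combinations of cell group and library with at least 50 cells, the members fell into different company. Among 7977 genes the level of *Ccl3*, as log2(CPM + 1), was most like that of *Ccl4* (Pearson's r = 0.92), *Cd244a* (0.92) and *Plek* (0.85), and *Ccl4* was most like *Ccl3*, *Cd244a* (0.87) and *Itgax* (0.85). *Ccl5* was most like *Tbx21* (0.95), *Nkg7* (0.95) and *Baiap3* (0.94), and *Xcl1* most like *Cd160* (0.95), *Nkg7* (0.95) and *Tbx21* (0.94). *Ccl5* and *Xcl1* reached 0.90 with each other, and *Ccl3* and *Ccl5* 0.35. *Ccl1* was most like *Gzmc* (0.74), *Calca* (0.70) and *Rln3* (0.69), a likeness that rests on few counts. The tdTomato- *Gzmc*-positive γδ T-like group, which *Gzmc* UMIs chose, was 1 of the 38 combinations, so its *Gzmc* level was set by that choice. In that group 1 cell gave 58 of the 66 *Ccl1* counts. The points share their libraries, and subsets of 1 class are not independent, so these values describe and carry no test.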

How the data were processed

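The gene expression files were deposited by the authors as Cell Ranger matrices of UMI counts, not normalized, on mm10 according to the submitters' processing notes. The TCR contig files, as deposited by the authors, held V calls, productivity and UMI counts per chain. The members and the gene lists were chosen with earlier results of these data known, and a few other results are left out here.

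Barcodes were kept from 300 detected genes upward and up to 10% mitochondrial counts. After scaling to 10000 UMIs a cell and a log transform, 2000 variable genes without chemokine ligands, receptor segments and mitochondrial genes gave 30 principal components and a graph of 15 neighbors, which was clustered at a resolution of 1 (scanpy 1.11.5, leidenalg 0.10.2). Marker lists named the clusters: *Trdc* at 200 CPM with *Cd3e* at 300 CPM for γδ T-like, and elsewhere a mean log2 enrichment of 0.5 over the markers, 3 of which had to reach 10 CPM. No doublet caller was used. Clusters with endothelial, CD45 and T cell RNA were kept apart, except a subcluster of 15 tdTomato+ and 22 tdTomato- cells that stayed among the γδ T-like cells outside the named subsets.

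Levels are CPM of summed counts with exact Poisson intervals, shares have exact Clopper-Pearson intervals, and ratios have exact conditional binomial intervals (scipy 1.17.1). With 1 library per sort there was no test. On simulated Poisson counts for the γδ T-like comparison 96.0% of 50 genes at a fold of 0.4 and 100% of 50 at a fold of 2.5 were called. There were 0 calls among 3362 unchanged genes. The simulation held no variation between cells, mice or batches, so it checks the calculation and gives no rate of false calls for these data. Named genes were the members, the list genes and the 3 genes most correlated with each member. Alternatives changed the cell filter, the clustering, the class definition, the cells summed and the scaling.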

Additional observations from a re-analysis of the deposited data

How the results depend on the processing

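No paired analysis was possible because each sort had 1 library and the labels give no replicate numbers, and for the same reason no replicate could be left out. In the γδ T-like comparison of the libraries 0 members passed the limit, but 3 did with at least 800 genes and at most 5% mitochondrial counts (*Ccl3*, *Ccl4*, *Ccl5*), 1 at a clustering resolution of 2 (*Ccl5*, −1.09), 1 with classes from marker counts per cell (*Xcl1*, −1.34, in 27 and 327 cells) and 1 without the top cell of each gene (*Ccl4*). The cause was not tested. Over 12 alternatives the ratio ran from −1.20 to 0.47 for *Ccl3*, −1.37 to −0.36 for *Ccl4*, −1.35 to −0.27 for *Ccl5* and −1.34 to 0.20 for *Xcl1*. The count of all genes past the limit was 78, against 1209 with no minimum level, 197 with the stricter cell filter, 1028 with classes from marker counts and 46 without cells over 2 times the median UMIs. The ratio of NK-like to γδ T-like cells for *Ccl3* stayed past the limit in 13 of 13 alternatives (1.15 to 1.53). That of *Gzmc*-positive to all *Gzmc*-negative γδ T-like cells for *Xcl1* did so in 14 of 14 (1.15 to 2.51). No alternative compared *Gzmc*-positive cells with gdT_Ncr1-like cells alone. The excess of *Ccl4* in cells with *Ccl3*, 39.4 percentage points, ran from 37.2 to 41.2. With the libraries clustered separately no tdTomato+ cluster was named γδ T-like, so that setting gave no value between the libraries. The alternatives without shared barcodes, without the top cell and without the subcluster led by endothelial genes were added after seeing the data. At 8 cells the tdTomato+ *Gzmc*-positive group bounds little.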
